A study of Mus musculus with 16 samples.

Results

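The mRNA levels of 33 genes of DNA repair and the DNA damage checkpoint were followed in cultured neural stem cells (NSC) of the mouse that carried an shRNA against the long noncoding RNA *RUS*. The genes were taken by name from the expression tables of day 5, with 55468 lines that name a gene, and of day 7, with 55471, and each of the 33 was found in both. By role, 12 act in homologous recombination, 3 form the MRN complex, 10 belong to the Fanconi anemia pathway, 1 recognises base mismatches and 7 act in the replication and damage checkpoint. The NSC came from cortices of C57BL/6 embryos at E15-16 and were grown as a monolayer with FGF2 and serum until day 5 after seeding, when the medium was changed for differentiation. Cortices of embryos of both sexes had been pooled. Every culture carried a lentivirus, which in the control expressed a scrambled sequence (shRNA CON) and otherwise a hairpin directed at *RUS* (shRNA RUS). The 16 libraries comprise 4 of shRNA CON and 4 of shRNA RUS on day 5, and 4 of each on day 7. These libraries hold a single shRNA sequence against *RUS*, and shRNA expression from this type of vector is not restricted to a cell type. The labels number the libraries of a group from 1 to 4 without naming cultures or litters, so the p-values below measure the spread between these libraries, which may be technical.

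Homologous recombination repairs a DNA break by copying an intact sister chromatid, and so works mainly in cells that replicate or have replicated their DNA. The Fanconi anemia pathway removes crosslinks between DNA strands that block the replication fork, and hands the resulting breaks to homologous recombination. The kinases Atr and Atm sense stalled forks and broken ends, and act through Chek1 and Chek2 to hold the cell cycle. In the developing cortex these genes are most active in dividing progenitors, and cells that leave the cycle to become neurons express many of them at a lower level.

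Levels are given as scaled TPM, that is, the deposited TPM (a transcript level corrected for gene length and library size) divided by a factor for each library (0.845 to 1.10 over the 16 libraries) that sets the typical gene equal between libraries. Changes are log2 fold changes of scaled TPM + 0.1, and a gene was called when its Benjamini-Hochberg adjusted p in limma, over all genes tested, was under 0.05 (two-sided). Across all genes tested, the median change was −0.06 on day 5 and −0.03 on day 7. With TPM as deposited the median of day 5 was −0.21 in place of −0.06, and the calls of that day moved with the scaling: the share of calls that were higher with shRNA RUS was 45.4% as reported, 22.7% with TPM as deposited and 58.1% with scaling to the 75th percentile. The targeted transcript *Gm20754* (*RUS*) lay close to zero in all libraries. The deposited TPM of shRNA CON were 0.24, 0.11, 0.18 and 0.16 on day 5 and 0.70, 0.72, 0.26 and 0.54 on day 7, and those of shRNA RUS were 0.05, 0, 0.12 and 0.32 on day 5 and 0.54, 0.38, 0 and 0.04 on day 7. The groups overlapped on both days, with limma adjusted p values of 0.519 and 0.114, so that a lower level of the target was not detectable in these values. The paper also measured *RUS* by RT-qPCR and reported a lower level in the knockdown cells. In bulk RNA, fewer cells of a type and less RNA per cell cannot be told apart.

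Most of the repair and checkpoint genes were lower in shRNA RUS than in shRNA CON on both days. On day 5, 26 of the 33 were called lower in shRNA RUS and 1 higher, against 17.9% of all 22581 genes tested that were called lower and 14.8% called higher. On day 7, 26 were called lower and 3 higher, against 25.8% and 23.4% of 24606 genes. The median log2 fold change of the 33 was −0.69 on day 5 and −0.71 on day 7. In all, 25 genes were called lower on both days, and *Fance* was called higher on both. A decrease of at least 2-fold was called for 7 of the 33 on day 5 and for 8 on day 7, with 6 in common, where 2.58% and 5.95% of all genes tested were called at that size. In 24 of the 33, each shRNA RUS library of day 5 lay below each shRNA CON library, and on day 7 this held for 26, against 18.0% and 25.9% of the 23789 genes tested over both days.

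**Figure D1:**
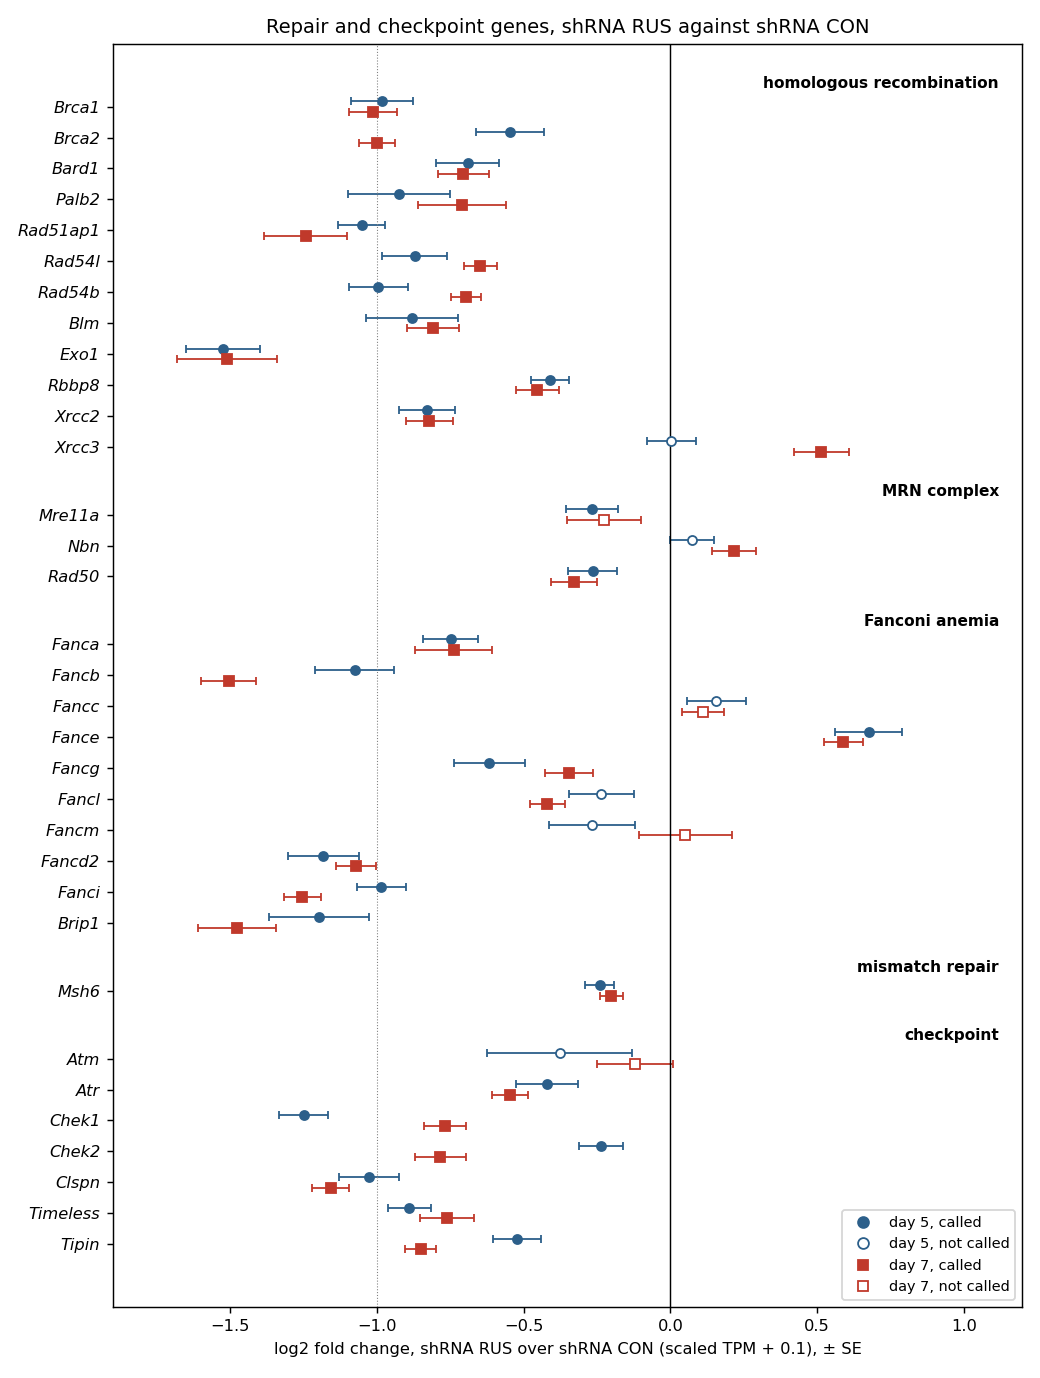
Log2 fold change of each gene, shRNA RUS over shRNA CON, with limma's standard error, on day 5 (circles) and day 7 (squares), ordered by role; filled symbols were called, open symbols were not, and the dotted line marks a 2-fold decrease. Most symbols lie left of 0 on both days, *Exo1* is the lowest on each day at −1.52 and −1.51, and *Fance* lies right of 0 on both.

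The mRNAs of proliferation markers were lower as well. All 12 markers examined, among them *Mki67*, *Cdk1* and *Ccna2*, were called lower on both days, against 17.9% and 25.8% of all genes tested. Their median log2 fold changes were −0.93 and −1.26. Their summed level was 959.9 to 1006 scaled TPM in the libraries of shRNA CON and 528.5 to 593.6 in those of shRNA RUS on day 5, and 944.6 to 964.5 against 384.0 to 431.1 on day 7. None of the 12 was at 0 in any group. The summed level of the 33 genes was 374.4 to 409.4 against 275.3 to 303.3 scaled TPM on day 5 and 405.2 to 422.5 against 280.0 to 288.9 on day 7. The part of proliferation in the lower levels of the repair genes was not tested.

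*Brca1* and the genes of its partners were lower. *Brca1* (chromosome 11, 101488764 to 101551955, minus strand; GRCm38), whose product promotes the resection of broken ends, stood at 7.00, 6.34, 6.64 and 6.10 scaled TPM in the shRNA CON libraries of day 5 against 3.41, 2.96, 2.88 and 3.78 with shRNA RUS. On day 7 the values were 7.45, 6.83, 7.66 and 7.17 against 3.20, 3.49, 3.94 and 3.47. The 8 libraries of shRNA RUS thus all lay below the lowest of shRNA CON, at 50.0% and 48.5% of the control mean. The log2 fold changes of *Brca1* were −0.98 (SE 0.10, limma adjusted p = 0.00016) and −1.01 (SE 0.08, limma adjusted p = 7.72e-06). *Bard1*, which encodes the obligate partner of Brca1 in its ubiquitin ligase, changed by −0.69 (SE 0.11) and −0.71 (SE 0.09), from 3.95 to 2.40 scaled TPM on day 5. *Palb2*, which bridges Brca1 and Brca2, changed by −0.93 (SE 0.17) and −0.71 (SE 0.15), at levels of 2.55 ± 0.269 against 1.31 ± 0.331 scaled TPM (SD, n = 4) on day 5.

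*Brca2* (chromosome 5, 150522630 to 150570329, plus strand), which acts in strand exchange, was affected more strongly on the later day. It stood at 9.07, 10.01, 7.59 and 8.79 scaled TPM in shRNA CON against 5.76, 6.32, 5.12 and 6.91 in shRNA RUS on day 5, and at 13.3, 13.3, 12.9 and 12.5 against 6.19, 6.06, 6.90 and 6.46 on day 7. The level in shRNA RUS stayed near 6 scaled TPM, while that in shRNA CON was higher on day 7 than on day 5 in every library. The log2 fold change was −0.55 on day 5 (SE 0.12, limma adjusted p = 0.00597) and −1.0 on day 7 (SE 0.06, limma adjusted p = 1.37e-06).

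Genes that act at the resection of ends and in strand exchange were lower as well. *Exo1*, an exonuclease that lengthens the single-stranded end, had the lowest log2 fold change of the 33 on both days, by a margin on day 7 that was smaller than its SE (*Fancb* was at −1.51 and *Brip1* at −1.48). Its levels on day 5 were 9.12, 11.75, 9.56 and 10.95 scaled TPM in shRNA CON and 3.21, 3.09, 3.53 and 4.31 in shRNA RUS, and on day 7 10.7, 9.87, 10.98 and 10.96 against 5.28, 3.23, 3.75 and 2.70. That is 34.2% and 35.2% of the control mean (on day 7 *Brip1* and *Fancb* stood lower, at 33.5% and 33.8%), with log2 fold changes of −1.52 (SE 0.13, limma adjusted p = 4.97e-05) and −1.51 (SE 0.17, limma adjusted p = 6.74e-05). *Rad51ap1*, which stimulates strand invasion, fell to 47.9% and 42.5% of control (−1.05 and −1.24), from a control level of 22.2 ± 1.54 scaled TPM on day 5 that was the highest of the recombination genes. The translocases *Rad54l* and *Rad54b* stood at −0.87 and −1.0 on day 5 and at −0.65 and −0.70 on day 7. *Blm*, the helicase that dissolves joined DNA molecules, was at −0.88 and −0.81, and *Xrcc2*, which assists strand exchange, at −0.83 and −0.82. *Rbbp8* (CtIP), which starts resection, showed a smaller decrease, with changes of −0.41 and −0.45. The adjusted p of each of these lay at or below 0.0025 in limma on both days.

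*Xrcc3*, which assists strand exchange as well, was the exception among the 12 recombination genes. On day 5 it was at 7.69, 6.54, 6.52 and 6.42 scaled TPM in shRNA CON and at 6.43, 6.97, 6.52 and 7.23 in shRNA RUS, and these ranges overlapped (limma adjusted p = 0.984). The sign of this value turned with TPM as deposited (−0.15). On day 7 it rose, with 6.38, 6.22, 5.78 and 6.07 in shRNA CON and 7.29, 8.85, 8.98 and 9.81 in shRNA RUS, a change of 0.52 (SE 0.09, limma adjusted p = 0.00121). Its exons share 12 bases with *Klc1*, a gene on the opposite strand at 159 scaled TPM in shRNA CON on day 5, and reads there cannot be assigned without the strand. Over the recombination genes, 11 of 12 were called lower and 0 higher on day 5, and 11 lower and 1 higher on day 7, with medians of −0.88 and −0.76.

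The genes of the MRN complex, which holds broken ends and activates Atm, had small changes. *Rad50*, its ATPase, was at 10.4, 10.1, 10.3 and 10.2 scaled TPM in shRNA CON against 9.55, 7.56, 7.97 and 9.10 in shRNA RUS on day 5 (−0.27, SE 0.08, limma adjusted p = 0.0369), and on day 7 it was at −0.33 (SE 0.08, limma adjusted p = 0.00658). *Mre11a*, the nuclease, was at −0.27 on day 5 (SE 0.09, limma adjusted p = 0.0436) and −0.22 on day 7 (SE 0.13, limma adjusted p = 0.175), with overlapping libraries on both days. *Nbn*, the subunit that binds Atm, was at 0.07 on day 5 (limma adjusted p = 0.492; −0.08 with TPM as deposited) and was called higher on day 7 at 0.22 (SE 0.08, limma adjusted p = 0.0369), although its libraries overlapped: 11.8, 12.9, 13.1 and 14.9 scaled TPM in shRNA CON against 15.6, 16.3, 14.0 and 14.8. The day 5 call of *Rad50* was lost without any one of replicates 1 to 4 of shRNA CON or replicates 2 and 3 of shRNA RUS (limma adjusted p up to 0.0973), and that of *Mre11a* without any one of replicates 1 to 3 of either group (up to 0.111). The day 7 call of *Nbn* was lost without any one of replicates 1 to 3 of shRNA CON or replicates 1, 2 and 4 of shRNA RUS (limma adjusted p up to 0.0993). Both day 5 calls were also lost with quantile normalization, at adjusted p values of 0.187 and 0.172 in limma.

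Among the Fanconi anemia genes, the direction was not shared by all subunits. The core complex ubiquitinates the pair of Fancd2 and Fanci, and of its measured subunits *Fanca*, *Fancb* and *Fancg* fell on both days, *Fancl* was called on day 7 only, *Fancc* was not called on either day, and *Fance* rose. *Fancb* (chromosome X, 164980592 to 164997272, plus strand) had 2.69, 2.67, 2.56 and 2.57 scaled TPM in shRNA CON against 1.47, 0.97, 1.18 and 1.17 in shRNA RUS on day 5, and 5.03, 5.32, 5.97 and 6.09 against 2.05, 1.99, 1.75 and 1.78 on day 7. Its level in shRNA RUS on day 7 was therefore below that of shRNA CON on day 5, with log2 fold changes of −1.08 (SE 0.13, limma adjusted p = 0.000371) and −1.51 (SE 0.10, limma adjusted p = 1.75e-06). *Fanca* was at −0.75 and −0.74, and *Fancg* at −0.62 and −0.35, all called. *Fancl*, the ubiquitin ligase of the complex, was at −0.24 on day 5 (limma adjusted p = 0.135) and −0.42 on day 7 (limma adjusted p = 0.00032). On day 5 it passed the test without replicate 1 of shRNA CON (−0.32, limma adjusted p = 0.0448) and with TPM as deposited (−0.39, limma adjusted p = 0.0217). *Fancc* was at 0.16 and 0.11, with limma adjusted p values of 0.27 and 0.241. *Fancm*, the translocase that anchors the complex on DNA, was at −0.27 and 0.05 (limma adjusted p = 0.198 and 0.824). It was called lower on day 5 without replicate 4 of shRNA RUS (−0.41, limma adjusted p = 0.0135), the library in which it was highest of its group at 9.07 scaled TPM.

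*Fance* (chromosome 17, 28313519 to 28326572, plus strand), the subunit that links the core complex to Fancd2, went the other way. On day 5 it had 20.1, 21.8, 22.7 and 26.0 scaled TPM in shRNA CON and 36.5, 40.9, 38.4 and 29.5 in shRNA RUS, and on day 7 15.0, 16.5, 15.5 and 15.1 against 21.4, 22.02, 23.8 and 25.8. Each library of shRNA RUS exceeded each of shRNA CON of the same day, at 160% and 150% of the control mean. The changes on the log2 scale were 0.68 (SE 0.11, limma adjusted p = 0.0019) and 0.59 (SE 0.07, limma adjusted p = 6.33e-05). *Fance* was also the most abundant of the 10 Fanconi genes in all 4 groups.

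The mRNAs of Fancd2 and Fanci, which form a clamp whose ubiquitination is the central step of the pathway, were strongly reduced. So was the mRNA of the helicase Brip1 (Fancj), which binds Brca1. *Fancd2* (chromosome 6, 113531682 to 113597017, plus strand) stood at 8.59, 8.35, 9.38 and 7.83 scaled TPM in shRNA CON against 3.91, 3.10, 3.38 and 4.51 in shRNA RUS on day 5, and at 8.59, 9.40, 8.36 and 9.14 against 3.91, 4.40, 3.95 and 4.26 on day 7. This corresponds to 43.6% and 46.6% of control, or −1.18 (SE 0.12, limma adjusted p = 0.000129) and −1.07 (SE 0.07, limma adjusted p = 2.05e-06). *Fanci* fell to 49.6% and 40.7% of control (−0.99 and −1.25), and its 4 libraries of shRNA RUS on day 7 spanned only 2.81 to 2.92 scaled TPM. *Brip1*, the gene of lowest level among the 33, had 2.32, 2.20, 2.31 and 2.05 scaled TPM in shRNA CON against 1.15, 0.68, 0.79 and 1.08 in shRNA RUS on day 5, with 2.55, 2.55, 2.37 and 2.56 against 0.81, 0.82, 1.04 and 0.70 on day 7. Its changes on the log2 scale were −1.20 (SE 0.17, limma adjusted p = 0.000777) and −1.48 (SE 0.13, limma adjusted p = 1.48e-05). Of the 10 Fanconi genes, 6 were called lower and 1 higher on day 5, and 7 lower and 1 higher on day 7.

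*Msh6*, which recognises base mismatches, was among the more abundant genes and changed slightly but evenly. It had 30.8, 30.1, 30.7 and 29.3 scaled TPM in shRNA CON against 26.1, 24.6, 25.0 and 26.5 in shRNA RUS on day 5, with no overlap, and was at 86.1% of control on day 7. The changes on the log2 scale were −0.24 (SE 0.05, limma adjusted p = 0.00552) and −0.20 (SE 0.04, limma adjusted p = 0.00181).

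Of the upstream checkpoint kinases, *Atr* was called lower on both days and *Atm* on neither. *Atr*, the kinase that responds to single-stranded DNA at stalled forks (chromosome 9, 95857597 to 95951781, plus strand), had 9.29, 9.24, 9.44 and 8.32 scaled TPM in shRNA CON against 6.85, 5.89, 6.23 and 8.16 in shRNA RUS on day 5, and 17.6, 17.7, 17.8 and 19.6 against 12.9, 12.6, 12.6 and 11.1 on day 7. It was thus lower with shRNA RUS on each day and higher on day 7 than on day 5 with either shRNA. The effect was −0.42 (SE 0.11, limma adjusted p = 0.0137) and −0.55 (SE 0.06, limma adjusted p = 6.24e-05). *Atm*, which responds to double-strand breaks, was not called on either day (−0.38 and −0.12, limma adjusted p = 0.278 and 0.486). The 4 libraries of shRNA RUS on day 5 were uneven for *Atm*, at 6.41, 7.60, 13.5 and 12.8 scaled TPM, where those of shRNA CON had 13.5, 14.9, 12.8 and 9.50.

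*Chek1* (chromosome 9, 36708482 to 36727065, minus strand) encodes the kinase that Atr activates. On day 5 it had 12.7, 11.03, 11.2 and 10.8 scaled TPM in shRNA CON and 4.54, 4.79, 4.43 and 5.21 in shRNA RUS, and on day 7 12.1, 10.7, 10.3 and 10.9 against 6.82, 6.03, 5.89 and 6.69. The control level was alike on both days, and the level with shRNA RUS was lower on day 5 than on day 7 in every library. *Chek1* fell by 1.25 on the log2 scale on day 5 (SE 0.08, limma adjusted p = 1.9e-05) and by 0.77 on day 7 (SE 0.07, limma adjusted p = 2.14e-05). *Chek2* (chromosome 5, 110839979 to 110874145, plus strand), the kinase downstream of Atm, showed the reverse order. It had 16.1, 18.2, 16.6 and 15.2 scaled TPM in shRNA CON against 13.9, 13.5, 13.1 and 15.4 in shRNA RUS on day 5, where the groups touched, and 16.2, 13.9, 12.8 and 12.5 against 7.93, 7.52, 8.34 and 7.73 on day 7, where they were far apart. The effect was −0.24 on day 5 (SE 0.08, limma adjusted p = 0.0407) and −0.78 on day 7 (SE 0.09, limma adjusted p = 5.4e-05). The call of *Chek2* on day 5 was lost with quantile normalization and with scaling to the 75th percentile (adjusted p = 0.111 and 0.134 in limma), and also without any one of replicates 1 to 3 of either group (up to 0.107).

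The genes that connect the fork to Chek1 were lower on both days. *Clspn*, the adaptor through which Atr phosphorylates Chek1, had 12.04, 10.9, 11.4 and 9.69 scaled TPM in shRNA CON against 4.94, 4.93, 5.20 and 6.30 in shRNA RUS on day 5, or 48.6% of control, and 43.9% on day 7 (−1.03 and −1.16, limma adjusted p = 0.000116 and 7.85e-07). *Timeless* and *Tipin*, which form the complex that protects the fork, were at −0.89 and −0.52 on day 5 and at −0.76 and −0.85 on day 7. *Tipin* was the most abundant of the 33 genes in every group except shRNA RUS of day 5, where *Fance* had a higher mean. The level of *Tipin* was 49.7 ± 5.30 scaled TPM (SD, n = 4) in shRNA CON against 34.5 ± 2.23 in shRNA RUS on day 5, and 49.8 ± 2.86 against 27.3 ± 1.51 on day 7. Of the 7 checkpoint genes, 6 were called lower on each day, and *Atm* was the one not called.

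**Figure D2:**
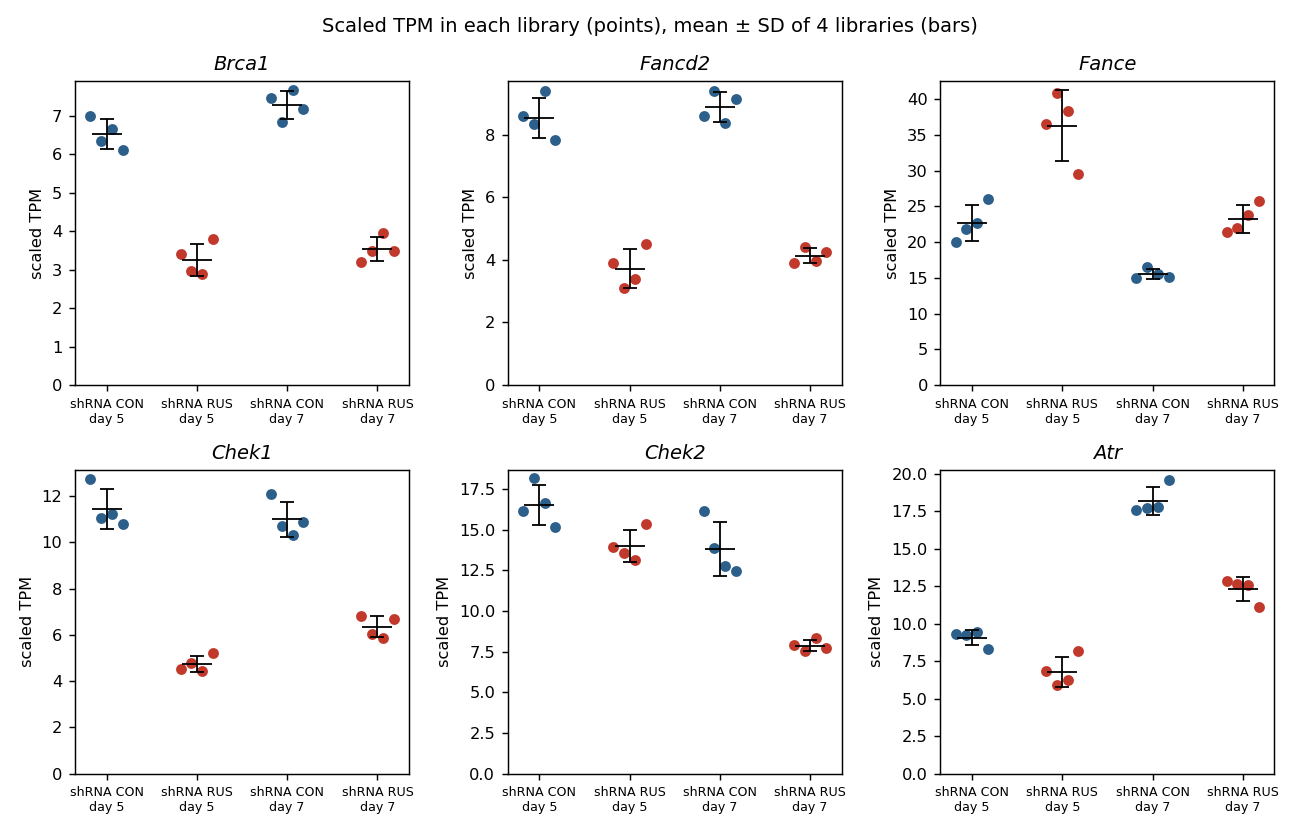
Scaled TPM of 6 genes in each of the 16 libraries (points; blue shRNA CON, red shRNA RUS) with the mean and SD of 4 libraries, axes starting at 0. *Brca1* and *Fancd2* were lower in all libraries of shRNA RUS on both days, *Fance* was higher, *Chek1* was lowest with shRNA RUS on day 5, *Chek2* was lowest with shRNA RUS on day 7, and *Atr* was higher on day 7 with either shRNA.

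The course from day 5 to day 7 was followed in each kind of culture with a fit over the 16 libraries, so that the comparisons of this paragraph share libraries with those above. In shRNA CON, 5 of the 33 genes were called lower on day 7 and 6 higher, against 21.6% and 26.9% of 23789 genes tested, and the median of the 33 was 0.04, beside 0.07 over all genes. The increases were those of *Fancb* (1.06), *Atr* (0.99), *Xrcc2* (0.56), *Brca2* (0.55), *Rad54b* (0.49) and *Fancl* (0.39), and the decreases those of *Fance* (−0.53), *Fancg* (−0.27), *Chek2* (−0.26), *Timeless* (−0.23) and *Msh6* (−0.11). In shRNA RUS, 4 genes were called lower and 7 higher, against 25.8% and 35.0% of all genes, with a median of 0.09, beside 0.13 over all genes. *Atr* (0.86), *Rad54b* (0.78), *Fancb* (0.63), *Xrcc2* (0.56), *Chek1* (0.42), *Blm* (0.39) and *Xrcc3* (0.35) were higher, and *Chek2* (−0.82), *Fance* (−0.63), *Tipin* (−0.34) and *Fanci* (−0.27) were lower. The split of these calls depends on the scaling: with TPM as deposited it was 1 lower and 12 higher in shRNA CON and 2 lower and 22 higher in shRNA RUS, and with scaling to the 75th percentile 9 lower and 6 higher, and 10 lower and 5 higher. Over all genes, the share of calls that were higher on day 7 was 55.5% in shRNA CON and 57.5% in shRNA RUS, and 71.4% and 76.9% with TPM as deposited; scaling to the 75th percentile gave 46.0% in shRNA RUS. The 4 smaller decreases in shRNA CON were lost when single libraries were left out, that of *Fancg* for 10 of the 16 libraries, that of *Msh6* for 8 and those of *Chek2* and *Timeless* for 2 each. Without replicate 1 of shRNA CON of day 5 the limma adjusted p of *Fancg* was 0.161, that of *Msh6* 0.0867 and that of *Timeless* 0.0671, and without replicate 4 of shRNA CON of day 7 that of *Timeless* was 0.0854 and that of *Chek2* 0.0539 (0.0518 without replicate 2 of day 5); with TPM as deposited all 4 were lost and *Msh6* turned to 0.04. In shRNA RUS the call of *Blm* was lost without replicate 2 of day 5 (0.25, limma adjusted p = 0.0731), those of *Blm* and *Xrcc3* with scaling to the 75th percentile (0.164 and 0.0757), and with TPM as deposited *Tipin* was at −0.01 and *Fanci* at 0.05.

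**Figure D3:**
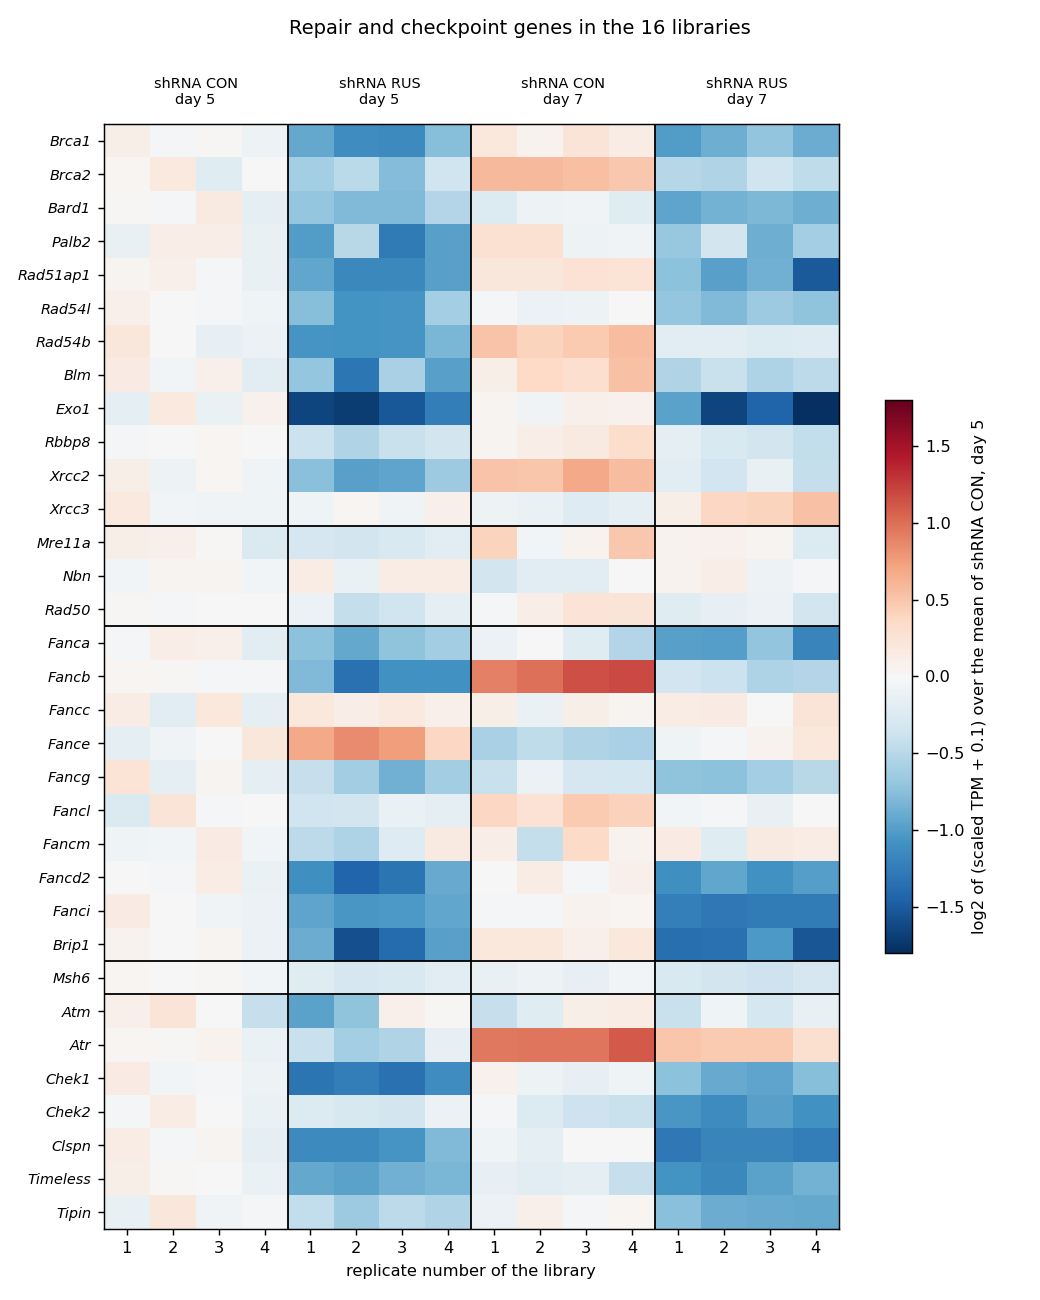
Log2 of scaled TPM + 0.1 relative to the mean of shRNA CON on day 5, for the 33 genes (rows, by role) in the 16 libraries (columns, by group and replicate number); blue is lower and red is higher. The libraries of shRNA RUS are blue in most rows, *Fancb* and *Atr* are red in shRNA CON on day 7, and *Fance* is red in shRNA RUS on day 5.

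Whether the difference between the shRNAs changed from day 5 to day 7 was tested as the difference of the log2 fold changes, day 7 minus day 5. It was called for 7 of the 33 genes, 5 lower and 2 higher, against 14.6% and 15.2% of all genes tested, and the median of the 33 was −0.003, beside 0.04 over all genes. The share of all calls that were higher was 51.1%, against 73.5% with TPM as deposited and 38.1% with scaling to the 75th percentile. *Chek2* had the largest shift at −0.56 (SE 0.12, limma adjusted p = 0.00203), followed by *Xrcc3* at 0.50 (SE 0.12, limma adjusted p = 0.00645) and *Chek1* at 0.47 (SE 0.11, limma adjusted p = 0.00434). The shifts of these 3 were called under all alternatives tried. *Brca2* was at −0.46 (SE 0.13, limma adjusted p = 0.0142), *Fancb* at −0.43 (SE 0.16, limma adjusted p = 0.0493), *Tipin* at −0.34 (SE 0.10, limma adjusted p = 0.0188) and *Fanci* at −0.28 (SE 0.09, limma adjusted p = 0.0367). The call of *Fancb* was lost without any one of 13 of the 16 libraries (limma adjusted p up to 0.0929, without replicate 3 of shRNA CON of day 7), and that of *Fanci* without any one of 11 (up to 0.0774, without replicate 3 of shRNA CON of day 5). With TPM as deposited *Brca2*, *Fancb*, *Fanci* and *Tipin* were not called, and the split of the calls was 1 lower and 3 higher.

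Ratios of transcripts within a library do not depend on the scaling between libraries, and 9 pairs, of which 8 join partners of a complex or pathway and 1 the paralogs *Rad54l* and *Rad54b*, were compared on each day with exact two-sided permutation tests of 4 against 4 libraries, for which 0.0286 is the smallest p. In 7 of the 18 comparisons the ratios of the shRNA groups did not overlap (p = 0.0286 each in the exact test). After adjustment over the 18 the smallest p of the exact test was 0.0735, so none passed. No adjusted p could fall under 0.05 unless most of the 18 comparisons had the smallest p. The adjusted values therefore could not decide whether a single ratio differed. The ratio of *Chek1* to *Atr* was 1.26 ± 0.087 in shRNA CON against 0.706 ± 0.078 in shRNA RUS on day 5 (SD, n = 4), and 0.607 ± 0.058 against 0.520 ± 0.063 on day 7, where the groups overlapped. *Chek2* to *Atm* was at 1.33 and 1.53 on day 5 and at 1.21 and 0.737 on day 7. *Nbn* to *Rad50* was at 1.46 against 1.85 and at 1.16 against 1.70, without overlap on either day. *Brca1* to *Bard1* was at 1.66 against 1.35 and at 2.07 against 1.67, again without overlap. *Timeless* to *Tipin* did not overlap on day 5 (0.232 against 0.178) and overlapped on day 7 (0.196 against 0.208). The ratios of *Fancd2* to *Fanci*, *Rad54l* to *Rad54b*, *Mre11a* to *Rad50* and *Brca2* to *Palb2* overlapped between the shRNA groups on both days.

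Since most of these genes were lower together, their promoters were searched for sequence words known from cell cycle genes. RefSeq promoters (GRCm38.p6, 250 bases before to 50 after the start) were matched by symbol for 25 of the 33 genes; *Exo1*, *Rad54b*, *Rbbp8*, *Fancd2*, *Rad50*, *Xrcc2*, *Tipin* and *Nbn* had no entry in the table. Exact words were searched on both strands: TTTCCCGC, TTTCGCGC, TTTGCCGC and TTTGGCGC for E2F, TTTGAA for the cell cycle genes homology region (CHR), and CCAAT for the CCAAT box. An E2F word was found for 6 of the 25 (*Bard1*, *Brca2*, *Chek2*, *Clspn*, *Fancg* and *Msh6*), and in 2.26% of 32851 promoters of the table. The CHR word was found for *Bard1* alone, and in 17.9% of all promoters. CCAAT was found for 17 of the 25, and in 37.4% of all promoters. A gene can have several promoters in the table and was counted when any of them matched. The shares of all promoters count each promoter by itself, so the counts of genes and these shares are of unlike units. A match describes the sequence and is not a binding site, and no match says only that these letters are absent from the window.

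The stretches of 4 promoters of genes that fell and of *Fance*, which rose, are shown in the direction of transcription with the words in capitals (E2F or its reverse complement in *Brca2* and *Bard1*, CHR in *Bard1*, and CCAAT or its reverse complement in the others); they lie at chr5:150522433-150522480 (plus strand), chr1:71103154-71103222 (minus), chr11:101552017-101552061 (minus), chr11:86201203-86201312 (minus) and chr17:28313308-28313352 (plus).
Brca2: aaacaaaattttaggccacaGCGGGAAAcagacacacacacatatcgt
Bard1: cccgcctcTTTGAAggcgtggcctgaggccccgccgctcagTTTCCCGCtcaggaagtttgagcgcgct
Brca1: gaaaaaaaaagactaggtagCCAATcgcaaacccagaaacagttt
Brip1: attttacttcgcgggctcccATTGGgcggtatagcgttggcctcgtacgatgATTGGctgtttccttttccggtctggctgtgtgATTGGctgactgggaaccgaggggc
Fance: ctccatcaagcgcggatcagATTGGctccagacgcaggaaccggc
*Brip1* holds 3 CCAAT words here, and *Brca1*, which fell, and *Fance*, which rose, hold 1 each. Of the 25 genes, *Xrcc3* held the most CCAAT words, counted over all promoters of a gene, so they need not lie in a single promoter. The part of these words in the levels of the genes was not tested.

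Other genes of these pathways were counted from lists drawn up for the purpose, beside the shares of all genes called lower and higher (17.9% and 14.8% on day 5, 25.8% and 23.4% on day 7). Of 25 further recombination genes, 12 were called lower and 4 higher on day 5 and 13 lower and 5 higher on day 7, with medians of −0.26 and −0.30. On day 5 the lowest was *Gen1* (−1.39), a resolvase, and the highest *Swsap1* (0.37), and on day 7 the highest was *Slx1b* (0.92), a nuclease. Of 14 further Fanconi genes, 3 were lower and 4 higher on day 5 and 7 lower and 4 higher on day 7. The lowest on both days was *Ube2t* (−0.76 and −1.42), which encodes the conjugating enzyme for Fancd2 and Fanci, and the highest were *Ercc1* (0.45) on day 5 and *Faap100* (0.79), a subunit of the core complex, on day 7. Of 22 further checkpoint genes, 14 were lower and 1 higher on day 5, and 16 lower and 2 higher on day 7, from *Wee1* (−0.93) to *Atrip* (0.27), the partner of Atr, on day 5 and from *Cdc25c* (−1.26) to *Etaa1* (0.46), an activator of Atr, on day 7. Among 6 other mismatch repair genes, 3 and 4 were lower and 0 higher, with *Pms2* the lowest on both days (−0.55 and −0.41).

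In the lists of 3 other repair routes, end joining, base excision and nucleotide excision, the medians lay between −0.36 and 0.05. Medians of the further recombination (−0.26 and −0.30), checkpoint (−0.34 and −0.35) and mismatch repair genes (−0.24 and −0.22) lay in the same range. Those of the further Fanconi genes were 0.08 and −0.09. The counts of these 3 routes are likewise to be read beside the shares of all genes called. Of 14 end-joining genes, 2 were lower and 1 higher on day 5, and 5 lower and 3 higher on day 7, with medians of −0.12 and −0.01. *Polq*, the polymerase of the alternative route, was the lowest on both days (−1.01 and −0.69), and *Paxx* was the highest, with 66.0 against 113 scaled TPM on day 5 and 47.9 against 84.9 on day 7 (0.77 and 0.84). Of 15 base excision genes, 5 were lower and 3 higher on day 5, and 9 lower and 1 higher on day 7, with medians of 0.00 and −0.36 and the glycosylases *Neil2* (−1.20, day 5) and *Neil3* (−1.48, day 7) as the lowest, and *Ogg1* (0.43) and *Mbd4* (0.39) as the highest. Of 15 nucleotide excision genes, 4 were lower and 2 higher on day 5, and 8 lower and 4 higher on day 7, with medians of 0.05 and −0.14. *Xpa*, which verifies the damage, was the highest called on both days (0.41 and 0.48), and *Ercc6* (−0.67) and *Cetn2* (−0.70) were the lowest. Among 18 targets of p53, 7 were lower and 5 higher on day 5, and 6 lower and 9 higher on day 7, with medians of 0.07 and 0.13, from *Eda2r* (−0.99 and −0.84) to *Gadd45a* (0.87 and 1.48).

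**Figure D4:**
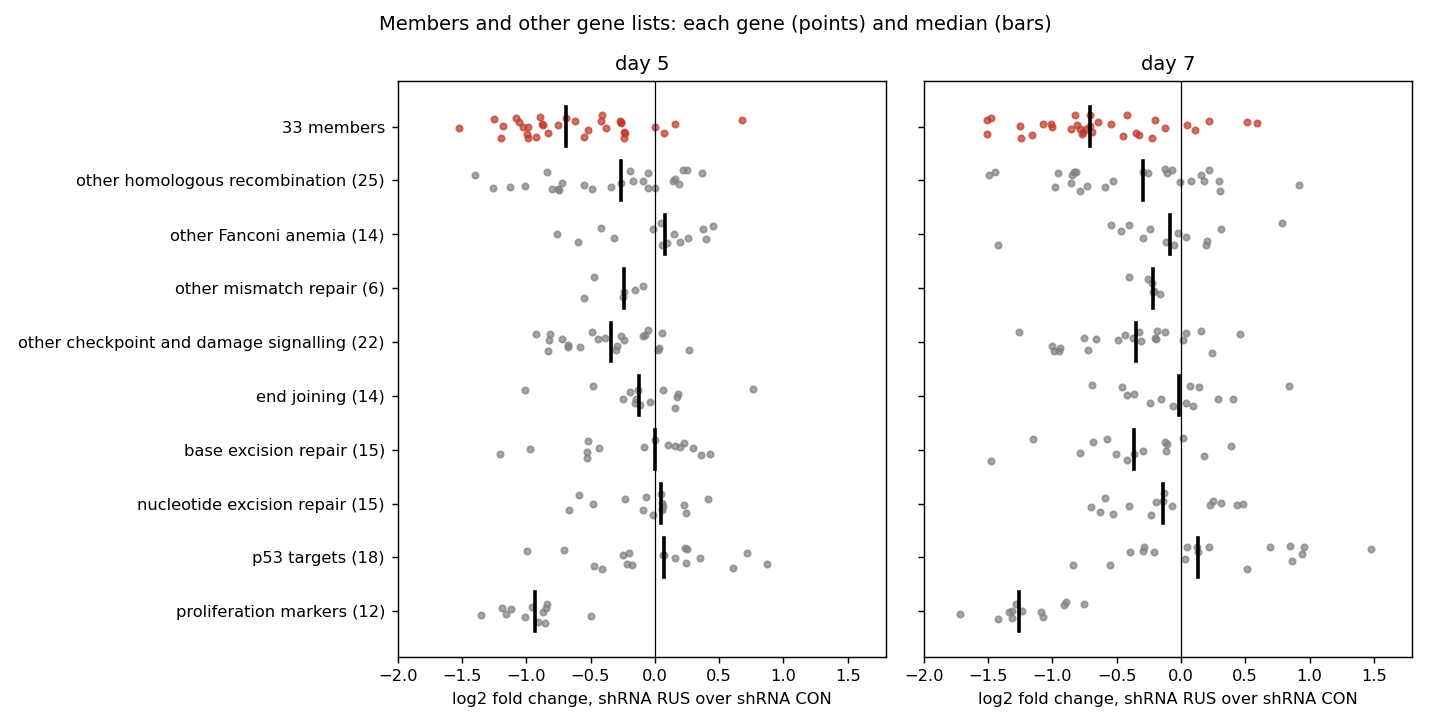
Log2 fold changes of the 33 genes (red) and of the genes of 9 other lists (grey, number of genes in brackets), shRNA RUS over shRNA CON, with the left panel for day 5 and the right panel for day 7; bars mark medians, and points are spread vertically only to keep them apart. The median of the 33 genes was −0.69 and −0.71, that of the 12 proliferation markers −0.93 and −1.26, and those of the other repair and checkpoint lists lay between −0.36 and 0.08.

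Markers of cell types were counted in the same way, beside the same shares of all genes. Of 8 markers of neural stem cells and radial glia, 3 were lower and 3 higher on day 5 and 3 lower and 2 higher on day 7, and none was at 0. Their called values ran from *Nes* (−0.87) to *Vim* (0.55) on day 5 and from *Nes* (−1.19) to *Pax6* (0.20) on day 7, and their summed level was 11639 to 13805 against 16895 to 20447 scaled TPM on day 5 and 6137 to 6464 against 6503 to 7094 on day 7. These sums were made up mostly of *Vim* (means of 9181 against 13489 on day 5 and 4739 against 5289 on day 7) and *Fabp7* (3617 against 5150 and 1155 against 1119), while the median log2 fold change of the 8 was −0.07 and 0.03. Of 8 oligodendrocyte lineage markers, 4 were lower on day 5 and 6 on day 7, with summed levels of 247 to 329 against 166 to 254 and of 375 to 412 against 239 to 263 scaled TPM. Of 8 microglia markers, 2 were lower on day 5 and all 8 on day 7, with sums of 123 to 134 against 110 to 143 and of 274 to 300 against 124 to 155 scaled TPM. Among 8 neuron markers 2 were lower and 3 higher on day 5 and 2 lower and 4 higher on day 7, with sums of 597 to 676 against 664 to 726 and of 755 to 838 against 732 to 853, and among 8 astrocyte markers 1 and 2 were lower and 2 and 3 higher, with sums of 5372 to 5602 against 6928 to 7161 and of 3292 to 3442 against 3896 to 4076. The astrocyte sums differed mainly through *Gfap* (means of 1848 against 2791 and 615 against 778) and *Aldoc* (1327 against 1971 and 1013 against 1533), and the median of the 8 was 0.02 and 0.04. Of 7 tested endothelial, mural and fibroblast markers, 1 was lower and 1 higher on day 5 and 1 lower and 2 higher on day 7, from *Kdr* (−0.91 and −1.30) to *Pdgfrb* (0.32 and 1.32). The sum of all 10 listed was 35.2 to 38.7 against 30.2 to 40.8 scaled TPM on day 5 and 20.8 to 22.3 against 33.2 to 36.9 on day 7, without overlap on the latter day, and *Cldn5*, *Cdh5* and *Lum* had means under 0.1 TPM in every group, with *Cldn5* at 0 in shRNA CON and *Cdh5* at 0 in shRNA RUS on day 7. The part of these cells in the levels of the repair genes was not tested.

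The exons of 17 of the 33 genes share bases with another annotated gene, and the sources used here do not state whether the libraries kept the strand. The overlap covers 35.8% of the exon bases of *Rad54b*, with *Fsbp* on the same strand at 1.94 against 1.39 scaled TPM on day 5 and 1.81 against 1.82 on day 7. It covers 16.4% of those of *Fancc*, with *Gm16133* at means of 0.0743 to 0.202 scaled TPM over the 4 groups, 16.0% of those of *Fanci* and 15.4% of those of *Rad54l*, whose partners *Polg* and *Lrrc41* were more abundant (46.6 and 46.0 scaled TPM in shRNA CON on day 5). *Fancl*, called lower on day 7 alone (−0.42), shares 13.7% with *Vrk2*, which was at 6.83 against 6.31 scaled TPM on day 5 and 6.63 against 5.04 on day 7. *Fanca* shares 10.5% with *Zfp276*, at 9.82 against 10.26 and 14.55 against 22.05. How reads in these stretches were assigned is not known, so that the levels of these genes carry that uncertainty.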

How the data were processed

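RNA of cultured NSC was sequenced after poly(A) selection in 16 libraries, 4 for each shRNA and day. Per the labels and methods, the authors aligned the reads to mm10 (GRCm38) with STAR and quantified them with RSEM, and the deposited values are TPM per gene. Versions of these tools, the strand setting and the read depth are not given in the sources used here, and TPM keep no depth, so no counting intervals are given; the deposited TPM of each library sum to about 1000000. Each table also holds 6 columns of the authors' own comparisons (fold changes and p-values), which were not used. Of the day 5 table, 3 lines name no gene. The tables of both days were joined on 55365 lines for the comparisons of days, with 106 left out; since they may have been normalized separately, levels set across days rest on the scaling below.

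TPM were divided by a factor for each library, its median ratio to the geometric mean over genes of at least 1 TPM in all libraries of the fit (13993 genes on day 5, 14814 on day 7 and 13614 over 16 libraries). Genes averaging 0.1 TPM or more were fitted with limma 3.58.1 (R 4.3.3, trended eBayes) on log2(scaled TPM + 0.1), so that the fold changes of low genes are understated, with Benjamini-Hochberg adjustment over all genes tested and a threshold of 0.05. The shRNA groups were compared in 8 libraries per day, and the days and the difference of the changes in all 16 libraries. Ratios of genes were compared by exact permutation (scipy 1.17.1). The fit was tested on simulated data: of genes changed 1.5-fold and 2-fold, 61% and 89% were recovered on day 5 (22513 genes, 5.66% of calls false) and 58% and 90% on day 7 (24493 genes, 8.07% false). In the simulation only a small set of genes of at least 1 TPM was changed, in random directions and with independent noise. Far more genes were called in the data, and the calls moved with the scaling, so these rates need not hold for them.

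The 33 genes and all other lists were chosen with earlier results of these data known. All 33 were named in the comparisons of shRNAs, the called ones in the other comparisons, and in each further list the called genes of lowest and highest change with a mean of at least 1 TPM (some are not reported here); the cell type markers, the partners in exon overlaps and the genes under 0.1 TPM were named after their values were seen. Alternatives were 1 or 0.01 in place of 0.1 before the log2, a filter at 1 TPM or none, unscaled TPM, scaling to the 75th percentile, quantile normalization, a replicate block, eBayes without trend and leaving out each library. Gene positions and exon overlaps are from GENCODE vM21. Figures were drawn with matplotlib 3.10.9.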

Additional observations from a re-analysis of the deposited data

Results flagged for a closer look

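Single libraries stood apart from the other 3 of their group in 10 of the 132 gene and group combinations examined (Dixon's test, which chance passes in about 1 of 20). In shRNA CON these were *Xrcc3* in replicate 1 of day 5 (7.69 scaled TPM, the others at 6.42 to 6.54), *Fancm* in replicate 3 of day 5 (9.03), *Brip1* in replicate 3 of day 7 (2.37) and *Atr* in replicate 4 of day 7 (19.6). In shRNA RUS they were *Rad54b* in replicate 4 of day 5 (4.85), *Nbn* in replicate 2 of day 5 (13.7), *Fancm* in replicate 2 of day 7 (6.97), *Mre11a* and *Atr* in replicate 4 of day 7 (11.4 and 11.1) and *Tipin* in replicate 1 of day 7 (29.5).

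The change between the shRNAs differed from day 5 to day 7, by the interaction test in limma, for 7 of the 33 genes (5 lower and 2 higher), where 14.6% of all genes tested were called lower and 15.2% higher. Relative to day 5, the log2 fold change of day 7 was lower by the values −0.56 for *Chek2*, −0.46 for *Brca2*, −0.43 for *Fancb*, −0.34 for *Tipin* and −0.28 for *Fanci*, and higher by 0.50 for *Xrcc3* and 0.47 for *Chek1*. The calls of *Fancb* and *Fanci* were lost on leaving out any one of 13 and of 11 of the 16 libraries. With TPM as deposited 1 gene was called lower and 3 higher.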

How the results depend on the processing

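Of the 33 genes, 24 kept their call and direction between shRNAs under every alternative on day 5, and 31 on day 7. The number called ranged from 24 to 28 on day 5 and from 28 to 29 on day 7 when single libraries were left out, from 9 to 12 and from 11 to 14 for the days in shRNA CON and shRNA RUS, and from 5 to 7 for the difference. With TPM as deposited, 24 genes were called between the days in shRNA RUS and 4 for the difference. The median of the 33 on day 5 lay between −0.84 (TPM as deposited) and −0.56 (quantile normalization). With TPM as deposited the direction turned for *Xrcc3* (−0.15) and *Nbn* (−0.0835) on day 5, for *Msh6* between days in shRNA CON (0.0448) and for *Fanci* in shRNA RUS (0.0482). Leaving out single libraries put *Xrcc3* of day 5 at −0.0252 to 0.0603 and *Fancm* of day 7 at −0.10 to 0.16. Libraries of the same number did not deviate together (correlations of −0.25 to −0.02 on day 5 and 0.02 to 0.10 on day 7; on day 7 replicates 2 and 3 correlated best with their own number). With a replicate block 22 genes were called on day 5 (*Atr*, limma adjusted p = 0.0582, *Msh6*, 0.0524, *Mre11a*, *Rad50* and *Chek2* were not) and 28 on day 7 (*Nbn* was not). For the difference 4 were called with the block, 2 lower and 2 higher (*Tipin*, limma adjusted p = 0.0885, *Fancb* and *Fanci* were not). The causes of these changes were not tested. The read depth is unknown, so the precision of low genes can be judged only from the spread of 4 libraries, and a single hairpin against *RUS* was used.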
